A study of Homo sapiens with 2 samples.

Results

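The regions described here are the PRMT5 peaks at DDIT4 and 5 other genes of the cellular stress response, TXNIP, ATF4, DDIT3, HMOX1 and SQSTM1. A peak belonged to the set if it overlapped one of these genes on hg19 or lay within 10 kb of its start or end. This gave 6 of the 2840 deposited peaks, at 4 of the 6 genes. The peaks were selected on their positions in the deposited list, and the genes were proposed with results of that list known. All values are therefore given as a description, with no test.

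PRMT5, the arginine methyltransferase that works with WDR77, was immunoprecipitated with a Bethyl Labs antibody from crosslinked, sonicated chromatin of MDA-MB-231. This established human breast cancer line was grown in serum-containing medium and received no treatment. The series holds 1 PRMT5 library, for which the peak list was used, and 1 input library from the same untreated line with no antibody, which was not analysed here. Without replicates no value has an error, and the list holds no read counts from which depth could be known, so the absence of a peak does not show the absence of PRMT5. A peak list gives no expression, and neither the cell line label nor the activity of these genes could be checked.

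Cells under nutrient, redox or protein-folding stress slow general translation while a few transcripts, among them that of ATF4, are translated more. ATF4 is a transcription factor that then activates genes of amino acid supply and adaptation, and DDIT3, also called CHOP, is one of its targets and itself a transcription factor linked to cell death under lasting stress. DDIT4, also called REDD1, is induced by hypoxia, glucocorticoids, energy stress and ATF4, and restrains the growth kinase complex mTORC1. TXNIP binds thioredoxin and limits glucose uptake. HMOX1 is heme oxygenase, which breaks down heme and is a target of the oxidative stress factor NRF2. SQSTM1, also called p62, is an autophagy receptor that binds KEAP1, the inhibitor of NRF2.

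The 4 genes with a PRMT5 peak were DDIT4, TXNIP, ATF4 and SQSTM1, and the 2 without one were DDIT3 and HMOX1. Each gene was taken as its whole given span on hg19, with TXNIP read on the plus strand, a reading discussed below. Of the 6 peaks, 5 lay downstream of a gene's end, 1 lay within a gene and 0 lay upstream of a gene's start. Each of the 4 genes had a peak that began within 2 kb past its end. None of the 6 genes had a peak within 1 kb of the start of its given span. The shortest distance from such a start to a peak was 2133 bp, at DDIT4. RefSeq for GRCh38.p14 lists 2 starts each for TXNIP, ATF4 and DDIT3 and 3 for SQSTM1. Distances of peaks from these further starts were not determined on hg19. For scale, hg19 chromosomes 1 to 22 and X were divided into windows as long as each gene with 10 kb on either side. Such windows held at least 1 peak in 1.49% of cases for the length of DDIT4, 1.64% for TXNIP, 1.50% for ATF4, 1.60% for DDIT3, 2.16% for HMOX1 and 3.21% for SQSTM1. The windows include unassembled sequence, which can hold no peak, and were not placed at genes. Because peaks were used to choose the genes, nothing is read from the difference between 4 of 6 genes and these shares.

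**Figure D1:**
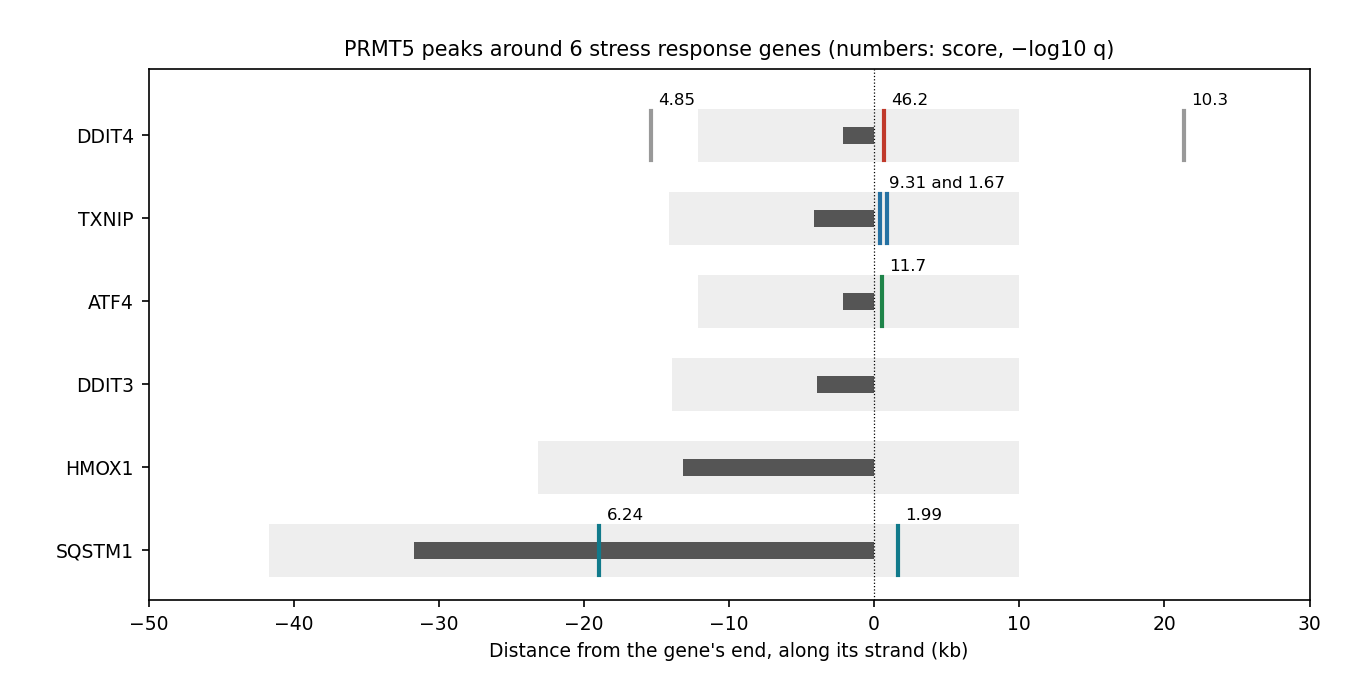
Map of PRMT5 peaks around the 6 genes, drawn along each gene's strand with its end at 0 (horizontal axis in kb). Dark bars are genes, grey bands reach 10 kb beyond them, coloured ticks are peaks inside the bands, grey ticks are peaks outside them, and numbers are scores. At DDIT4, TXNIP and ATF4 the peaks inside the band stand just right of the gene end, SQSTM1 has 1 peak inside the gene and 1 past its end, and DDIT3 and HMOX1 have none.

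DDIT4, the mTORC1 inhibitor, carried by far the strongest and widest of these peaks. The gene lies on chromosome 10, band q22.1, at 74033677 to 74035797, and is 2121 bp long. Its peak lay at 74035810 to 74037170. It began 13 bp after the gene's end and 2133 bp after its start, and ran to 1373 bp past the end. By these coordinates the peak lay wholly outside the gene, though the gap of 13 bp is small against the peak's width. The peak was 1361 bp wide, 0.64 times the length of the gene itself. Its score, read here as the −log10 of the q-value of the authors' caller, was 46.2. In the whole list, 1.20% of peaks scored higher and 1.06% were wider, which put it at rank 35 by score and rank 31 by width.

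The DDIT4 peak was the only one of the 6 wider than 1 kb. Outside the mitochondrial sequence the list held 54 peaks above that width, with a median score of 34.1, and the DDIT4 peak ranked 11th among them by score and 30th by width. Among windows as long as DDIT4 with 10 kb on either side, 33 of 137248 (0.0240%) held a peak that scored at least as high. DDIT4 was proposed with results of this list known, so these ranks describe the peak and support nothing further.

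Around DDIT4 the list held 3 further, weaker peaks within 100 kb, beyond the 10 kb limit. Upstream, a peak of 176 bp at 74020306 to 74020481 ended 13.2 kb before the gene start, with a score of 4.85. Downstream, a peak of 269 bp at 74057008 to 74057276 began 21.2 kb past the gene end and scored 10.3. Another, of 290 bp at 74094694 to 74094983, began 58.9 kb past the end and scored 9.21. Together with the peak at the gene end, these made 4 peaks in 74.7 kb. In the RefSeq gene table for GRCh38.p14, used here only for gene order, the next protein-coding genes on either side of DDIT4 are ANAPC16 and DNAJB12. Which of these genes, if any, the outer peaks touch was not determined on hg19.

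ATF4, the transcription factor at the centre of the response, had 1 peak of moderate score. The gene is 2123 bp long and lies on chromosome 22, band q13.1, at 39916569 to 39918691. Its peak at 39918990 to 39919417 began 299 bp past the gene end and 2421 bp past the start, and ended 726 bp past the gene end. It was 428 bp wide, with 9.44% of the list wider, and scored 11.7, with 27.3% of the list scoring higher. The score lay between the list's median of 7.80 and its upper quartile of 12.4. No other peak lay within 100 kb of ATF4. The nearest one upstream was 345 kb away, with a score of 14.0.

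TXNIP, the thioredoxin-binding protein, had 2 peaks side by side past its end. The gene is 4167 bp long and lies on chromosome 1, band q21.1, at 145438462 to 145442628. The first peak, at 145442758 to 145443319, covered 130 to 691 bp past the gene end, was 562 bp wide and scored 9.31. In the list, 39.3% of peaks scored higher but 5.49% were wider, so the peak was wide for its score. The second, at 145443408 to 145443562, covered 780 to 934 bp past the end, was 155 bp wide and scored 1.67. Read as −log10 q, that score equals a q-value of 0.0216, near the weakest in the list, and 99.6% of peaks scored higher. Only 88 bases separated the pair. In the list as a whole the next peak began that close or closer for 54 peaks (1.90%), so the pair could be counted as 1 region. Merging of peaks within 1 kb did so, a wider limit that the next peak met for 505 peaks (17.8%).

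The gene positions used here state a strand only for DDIT3, and the other 5 genes were read on the plus strand of hg19. For TXNIP, RefSeq has the minus strand in GRCh38.p14, so its direction here rests on that reading. Read on the minus strand, both TXNIP peaks would lie before the gene start, and 3 of the 6 peaks, at 3 genes, would be downstream. The 2 TXNIP peaks would then lie 130 and 780 bp before that start. TXNIP would thus have peaks within 1 kb of its start, closer than the 2133 bp at DDIT4. For DDIT4, ATF4, SQSTM1 and DDIT3 the strand used here is also that of the RefSeq promoter table for GRCh38.p14. HMOX1 has no entry there, so no table backs the plus strand read for it.

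Over the spans taken here, SQSTM1, the autophagy receptor, differed from the other genes in having a peak inside its span. The gene as taken here is 31690 bp long, the longest of these genes, with HMOX1 next at 13148 bp. It lies on chromosome 5, band q35.3, at 179233388 to 179265077. The inner peak, at 179246054 to 179246232, lay 12.7 kb past the gene start and 18845 bp before the gene end. It was 179 bp wide and scored 6.24, with 64.6% of the list scoring higher and 66.9% wider. RefSeq lists 3 starts for SQSTM1. Whether the inner peak lies before or after the other starts, and how far from them, was not determined on hg19. Whether it is exonic or intronic was not determined either.

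The second SQSTM1 peak, at 179266644 to 179266801, began 1567 bp past the gene end, was 158 bp wide and scored 1.99. Read as −log10 q, this score equals a q-value of 0.0102, and 99.0% of peaks scored higher. Only 29 of the 2840 peaks scored 2 or less, and this peak and the second TXNIP peak were 2 of them. In the RefSeq table MRNIP overlaps the end of SQSTM1 and MGAT4B overlaps its start. Either SQSTM1 peak may thus lie in another gene, which was not determined on hg19. The 2 SQSTM1 peaks were 20.4 kb apart, and no further peak lay within 1 Mb of the gene.

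**Figure D2:**
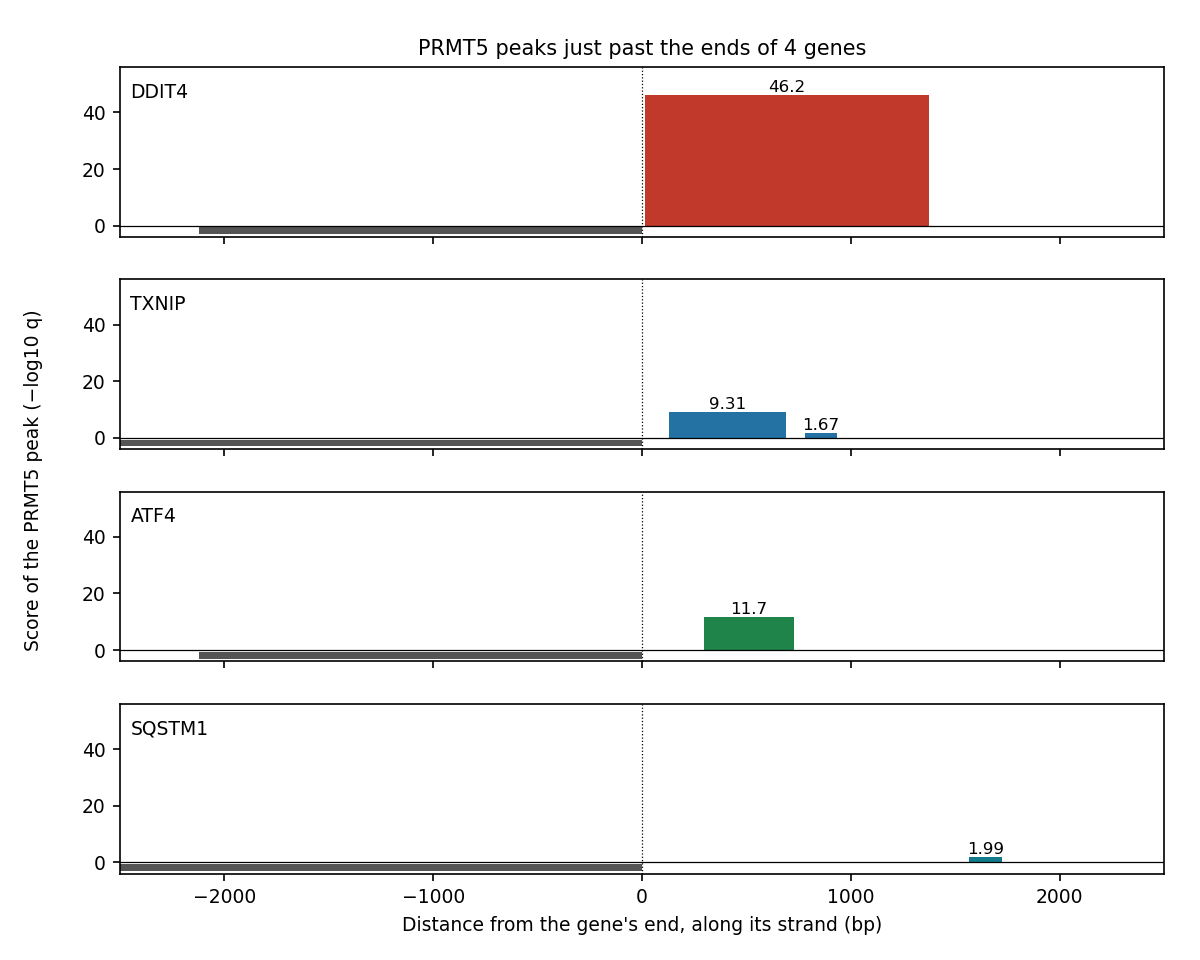
Scores of the peaks near the ends of the 4 genes, against distance from the gene end along the strand (horizontal axis in bp; vertical axis is the score, −log10 q, from 0 upward). Each coloured bar spans the peak's width and its height is the score, and the dark strip below 0 is the gene. The DDIT4 bar starts 13 bp past the end and reaches 46.2, whereas those of TXNIP, ATF4 and SQSTM1 start 130, 299 and 1567 bp past the end and reach 9.31, 11.7 and 1.99.

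DDIT3 and HMOX1 had no PRMT5 peak nearby. DDIT3, the CHOP factor, lies on the minus strand of chromosome 12, band q13.3, at 57910371 to 57914300. Its nearest peak ended 790 kb upstream of its start with a score of 6.46, and the nearest one downstream was 1398 kb from its end with a score of 26.1. On a grid of positions every 1 kb over hg19 the median distance to a peak was 813 kb, and 50.9% of positions lay farther from a peak than DDIT3 did. On chromosome 12 alone the median was 697 kb and 46.1% of positions lay farther. The grid includes unassembled sequence, which can hold no peak. DDIT3 is 3930 bp long, between ATF4 and TXNIP in length. MARS1 overlaps it in the RefSeq table, and no peak lay near either end.

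HMOX1, the heme oxygenase, lies on the same chromosome as ATF4, in band q12.3 at 35777060 to 35790207, and is 13148 bp long. No peak lay within 100 kb of it. The nearest was 195 kb past its end, at 35985279 to 35985478, with a score of 7.06. It was followed by a peak at 211 kb that scored 29.5 and one at 236 kb that scored 12.6. On the other side the nearest peak was 3551 kb away. Chromosome 22 held 30 peaks in all, and 82.1% of the hg19 grid positions, or 84.2% of those on chromosome 22, lay farther from a peak than HMOX1 did.

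**Figure D3:**
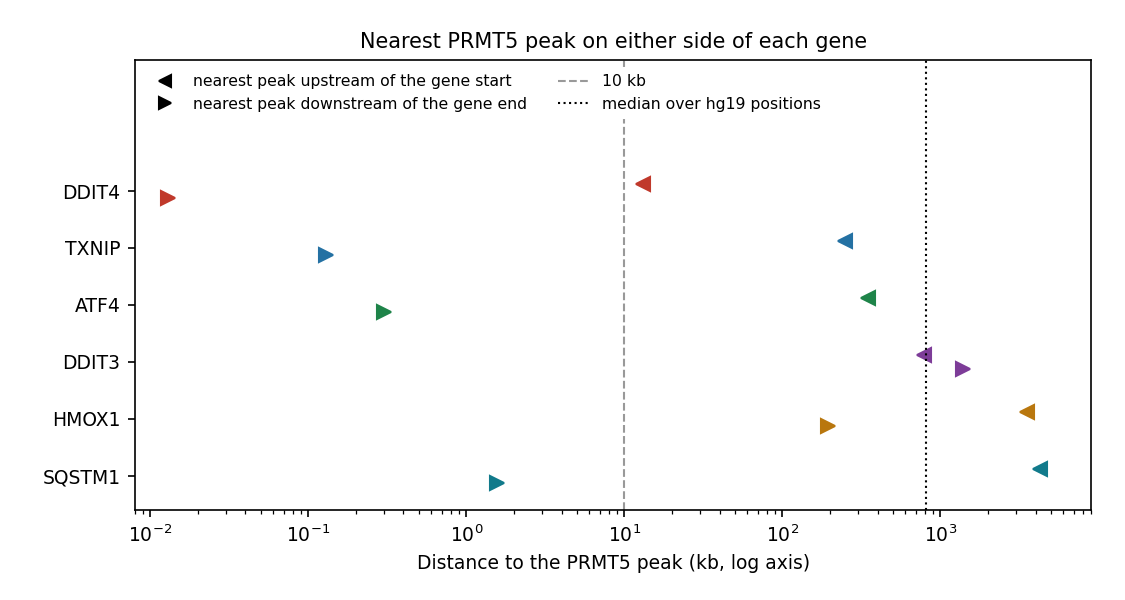
Distance from each gene to the nearest peak upstream of its start (left-pointing) and downstream of its end (right-pointing), in kb on a log axis. The dashed line marks 10 kb and the dotted line the median of 813 kb over hg19 positions. The SQSTM1 peak inside the gene is not drawn. TXNIP is drawn as read on the plus strand. The downstream distances of DDIT4, TXNIP, ATF4 and SQSTM1 are 0.013, 0.13, 0.299 and 1.57 kb, and every upstream distance is above 10 kb.

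Among themselves the 6 peaks ran from rank 35 to rank 2831 of the 2840 by score. In order of score they were DDIT4 at 46.2, ATF4 at 11.7, the wider TXNIP peak at 9.31, the inner SQSTM1 peak at 6.24, the outer SQSTM1 peak at 1.99 and the narrow TXNIP peak at 1.67. Their median score was 7.78 and that of all 2840 peaks was 7.80, so as a set they were not strong. Of the 6, 3 scored above the list's median, 1 scored above its upper quartile and 2 scored at or below its lower quartile of 5.38. The same 3 peaks, those of DDIT4, ATF4 and the first of TXNIP, were the ones wider than the list's median of 210 bp. The DDIT4 peak was 2.42 times as wide as the next widest.

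**Figure D4:**
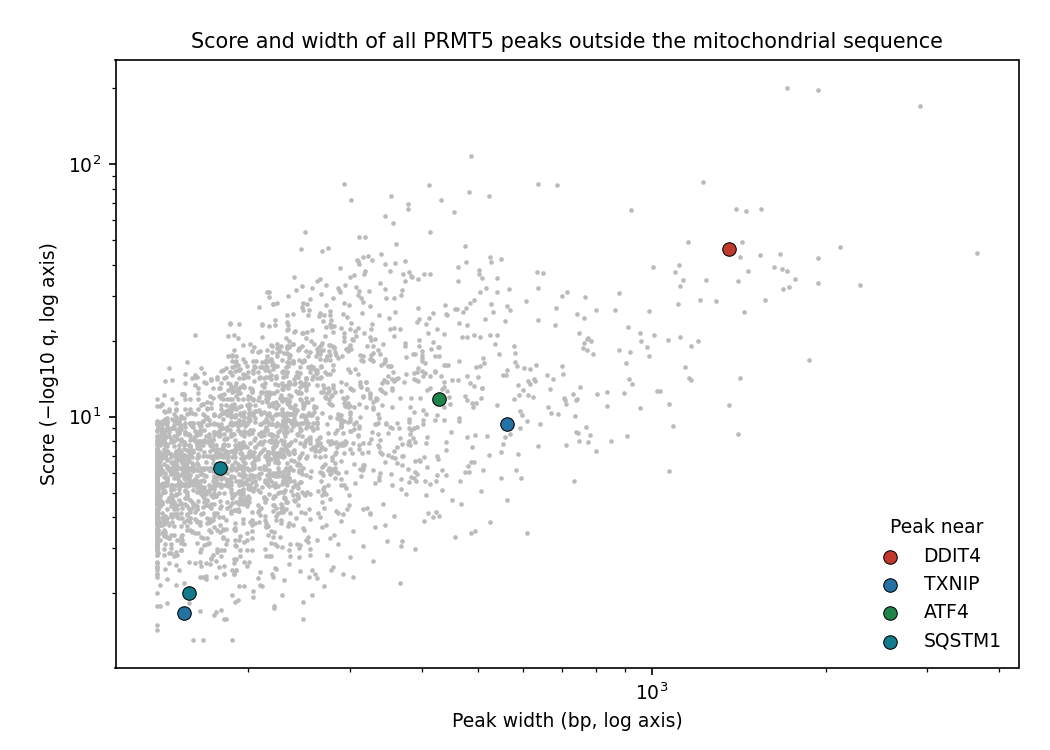
Score (−log10 q) against width (bp) of all peaks outside the mitochondrial sequence, both on log axes. Grey points are the other peaks and coloured points the 6 peaks near the stress response genes. DDIT4 stands at 1361 bp and 46.2 among the wide, high peaks, and the narrow TXNIP and outer SQSTM1 peaks stand at the lower left, at 155 bp and 158 bp.

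None of the 6 peaks lay in a 1 Mb window with 10 or more peaks, of which the list had 25 holding 624 peaks. The windows of these 6 held 2 to 5 peaks each. Position past the gene end was a feature that the choice of peaks did not require, since the 10 kb limit was the same on both sides. Peaks were known when the genes were proposed, however, and peaks at the ends of other genes could not be counted without an hg19 annotation. Whether this position is more common at stress response genes than elsewhere was thus not tested. Whether the signal exceeds that of the input at these gene ends was not tested either.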

How the data were processed

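Chromatin immunoprecipitation sequencing of PRMT5 was analysed from 1 deposited peak list. Per the submitters' processing notes, CASAVA 1.4, Bowtie2 and MACS2 and the build hg19 were used, without roles or settings. Whether the input was the caller's control is not stated there. The deposited score is read as a −log10 q-value from its values, since the file has no header and its minimum, 1.30, is the −log10 of 0.05. Read depth is unknown.

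The members, gene lists and alternatives were chosen with earlier results of these data known. Gene positions on hg19 were given with the gene set, with a strand for DDIT3 alone; the others were read as plus. All 6 genes were described, with every peak within 10 kb and the nearest peak on either side. Distances were counted from 1-based coordinates along the strand, and the calculation was checked on planted peaks. Chromosome lengths came from GenomeInfoDb 1.38.1 and bands from circlize 0.4.16. Gene order came from RefSeq, where all 6 symbols matched. Wider stress gene lists and peak sequences were not analysed here, for want of an hg19 annotation or genome. No test was run. Alternatives changed the distance, the score minimum, the merging of peaks, the reference point, the dense windows and the TXNIP strand. Software was pandas 2.3.3 and numpy 2.4.6 under Python 3.11.15, with figures drawn in matplotlib 3.10.9.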

Additional observations from a re-analysis of the deposited data

How the results depend on the processing

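With limits of 1, 5, 20 and 50 kb the number of peaks was 5, 6, 7 and 8, against 6 at 10 kb, and the number of genes with a peak was 4 at each. In the highest-scoring 50% of the list 3 peaks remained near the genes, 3 of them downstream, at 3 genes. In the highest-scoring 25% there was 1 peak, at 1 gene, DDIT4. Merging peaks within 1 kb gave 5 peaks at 4 genes, 4 of them downstream. Measured from gene starts only, 3 genes had a peak within 10 kb, and from gene ends only, 4. With TXNIP read on the minus strand, 3 peaks in place of 5 were downstream. The downstream counts and their alternatives were chosen after seeing the data. Leaving out the dense windows kept 2216 peaks and moved the share scoring higher by at most 1.57 percentage points for the 6 peaks. No paired analysis was possible because only 1 library was analysed.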
